A study of Mus musculus with 6 samples.

Results

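Livers of Balb/c and Balb/cBy mice were compared for 32 genes of Kupffer cells and other macrophages, and 31 of them could be measured, of 22180 genes measured in all. None of the 31 passed the test for a difference between the strains. The 4 members whose values did not overlap between the strains, Gpnmb, Cd9, Mpeg1 and Fcer1g, were all higher in Balb/cBy, by 0.35 to 0.48 on the log2 scale, where 4.32% of all genes were higher and 3.51% lower without overlap. A dimmer probe set of Cd9 differed by -0.11 instead. With Balb/c replicate 3 left out, 4 members were higher and 6 lower without overlap, where 9.53% and 10.1% of all genes were. With all 6 arrays the groups overlapped for each gene of resident Kupffer cells, such as Clec4f and Timd4. Without Balb/c replicate 3, Timd4, Marco and Folr2 were among the members lower without overlap. For 28 of the 31 the range within a strain was wider than the difference between the strains, as it was for 96.9% of all genes. The genes are known macrophage markers, chosen by name with earlier results of these data known, and each was read from the probe set that names it alone (where several do, as for Cd9, from the one with the highest mean over the 6 arrays). Spp1, osteopontin, has no such probe set among those named here and was not analysed.

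The samples were 6 liver RNAs, 3 from Balb/c and 3 from Balb/cBy males, with one Affymetrix array for each mouse. All mice were caged singly and were fed, from an age of 8 weeks, a diet with 58% of energy from fat for 12 weeks, so that both strains carried the same treatment and were 20 weeks old. No mice on another diet were analysed here, and the labels do not name the supplier of either strain. Balb/cBy is a substrain known for a defect of the mitochondrial enzyme encoded by Acads. The labels call the 3 arrays of a strain biological replicates. The RNA came from whole liver, so that fewer macrophages and less RNA per macrophage cannot be told apart in any value below.

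Kupffer cells are the macrophages that line the sinusoids of the liver and clear particles, bacteria and spent red cells from the blood. They arise mainly from embryonic precursors and are kept by signalling through the receptor Csf1r, and when some are lost, monocytes from the blood can take their place. Lipid-associated macrophages appear in fatty tissue and fatty liver, take up lipid and debris, and express Trem2, Gpnmb, Cd9 and Spp1. The members were therefore read in 4 classes: resident Kupffer cell genes (7), lipid-associated genes (6, of which 5 were measured), genes of monocytes and monocyte-derived cells (3) and general phagocyte genes (16). Several are not exclusive to macrophages: Cd9, Lgals3 and Ctsd are also made by other liver cells, and Mrc1 by sinusoidal endothelium.

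All values are log2 intensities after RMA, and a difference is Balb/cBy minus Balb/c. A value can be compared between arrays for one gene, but not between genes, because probe sets differ in brightness. The medians of the 6 arrays lay between 7.66 and 7.74. The hepatocyte genes Alb, Ttr and Apoa1 read 13.46 to 14.22 in every array. Of the markers, Clec4f, Timd4, Trem2 and Adgre1 were above every array median in all 6 arrays, while Gpnmb straddled the medians. In all, 26 of the 31 members lay above every array median in each array. No detection calls were used, so a value near the median cannot be called present or absent.

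No member was called (limma, adjusted p = 0.999 for each of the 31), and the same threshold called 0% of all 22180 genes. At an unadjusted p under 0.05 there were 5 members, all higher in Balb/cBy (Vsig4, Gpnmb, Cd9, Mpeg1 and Fcer1g), where 2.59% of all genes met this in the higher direction and 1.16% in the lower. The groups did not overlap for 4 members, all higher in Balb/cBy, and for 0 in the lower direction. Over all genes 4.32% were higher without overlap and 3.51% lower. A difference above 0 was found for 23 of 31 members and for 49.1% of all genes. The median difference of the members was 0.08, and that of all genes -0.00. These counts depended on single mice. Without Balb/c replicate 2, 28 of 31 members were higher and the median was 0.24, and the share of all genes was not taken there. Without Balb/c replicate 3, 12 of 31 members were higher (48.2% of all genes) and the median was -0.04. Then 4 members were higher and 6 lower without overlap, where 9.53% and 10.1% of all genes were. Without Balb/cBy replicate 1, 26 members were higher (46.7% of all genes), and 8 were higher and 0 lower without overlap (12.8% and 14.1% of all genes). With Balb/c replicate 3 and Balb/cBy replicate 1 both left out, 17 were higher (46.3% of all genes). In that setting 8 were higher and 6 lower without overlap (20% and 23.3% of all genes). With fewer arrays, groups separate more easily.

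**Figure D1:**
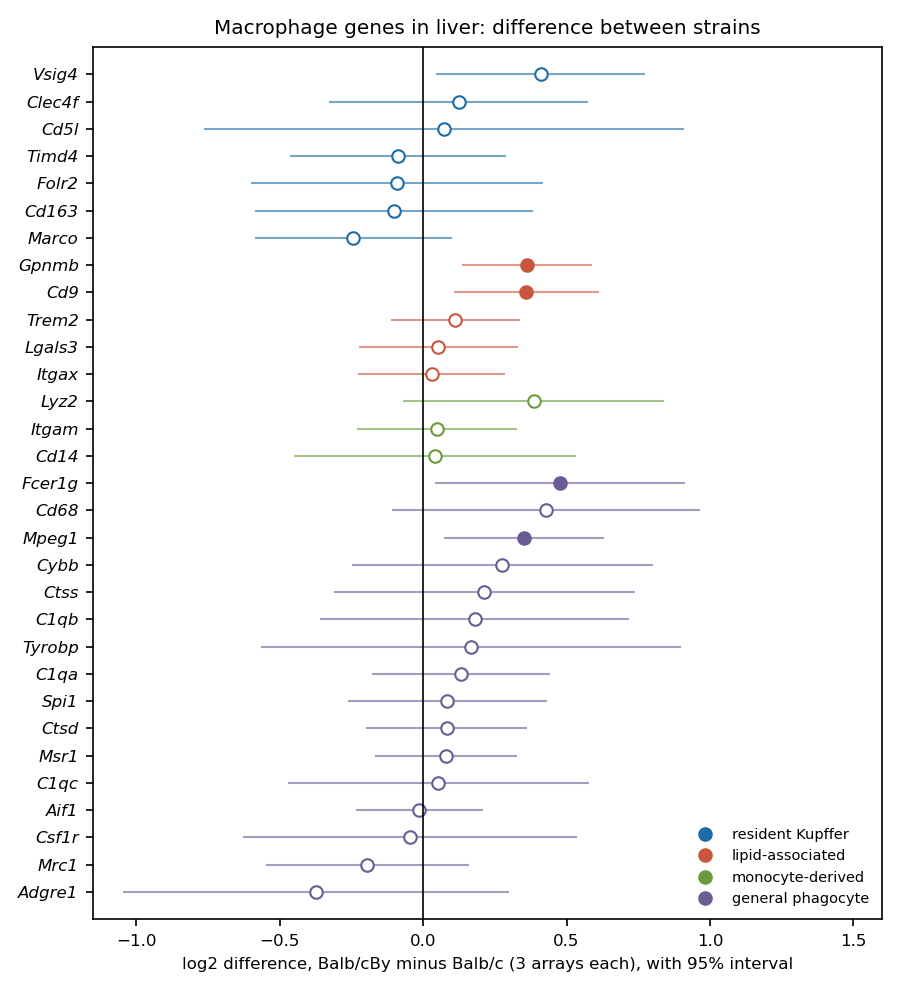
Log2 difference of each measured macrophage gene, Balb/cBy minus Balb/c, with its 95% interval from limma (3 arrays per strain), coloured by class. Filled points mark genes whose groups did not overlap (Gpnmb, Cd9, Mpeg1 and Fcer1g), and the intervals of 26 of 31 genes include 0.

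The resident Kupffer class showed no common direction, with 3 of 7 genes higher, 4 lower and a median of -0.09. Clec4f, a C-type lectin that is the most specific marker of mouse Kupffer cells, read 10.40, 10.63 and 9.90 in Balb/c and 10.20, 10.43 and 10.67 in Balb/cBy. These groups overlap, with Balb/c replicate 3 lowest, and the difference was 0.12 (SE 0.20, 95% interval -0.33 to 0.58). Timd4, a phosphatidylserine receptor found on long-lived resident Kupffer cells, read 9.09, 9.30 and 8.68 in Balb/c and 8.77, 8.97 and 9.06 in Balb/cBy. Its Balb/c arrays span all 3 Balb/cBy arrays, with a difference of -0.09 (SE 0.16, interval -0.46 to 0.29).

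Vsig4, the complement receptor CRIg that captures opsonised bacteria from the blood, differed most in this class. It read 11.20, 10.85 and 10.57 in Balb/c and 11.16, 11.37 and 11.31 in Balb/cBy. Only Balb/c replicate 1 reached the Balb/cBy range, and the difference was 0.41 (SE 0.16, interval 0.05 to 0.77, adjusted p = 0.999 in limma). Leaving out Balb/c replicate 3 gave 0.26, and leaving out replicate 1 of that strain gave 0.57. The scavenger receptor Marco stood on the other side, at 7.96, 8.16 and 7.66 in Balb/c and 7.55, 7.62 and 7.88 in Balb/cBy, a difference of -0.24 (SE 0.15, interval -0.59 to 0.10). Cd5l, a secreted inhibitor of macrophage cell death, was the member with the widest spread within a strain, at 10.94, 11.57 and 10.06 in Balb/c. Its Balb/cBy values of 10.44, 11.04 and 11.30 lie inside that range, and its difference was 0.07 (SE 0.36). The haemoglobin scavenger receptor Cd163 differed by -0.10 (SE 0.21) and the folate receptor Folr2 by -0.09 (SE 0.22), both with overlapping groups.

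All 5 measured lipid-associated genes had a difference above 0, with a median of 0.11, and Gpnmb and Cd9 had the largest. Gpnmb, a transmembrane glycoprotein induced in lipid-laden macrophages, read 7.49, 7.53 and 7.55 in Balb/c and 8.02, 7.89 and 7.75 in Balb/cBy. The groups do not overlap, the Balb/c arrays lie within 0.07 of each other, and the difference was 0.36 (SE 0.10, interval 0.14 to 0.59), a fold of 1.29. It lay between 0.30 and 0.43 when each array was left out. Cd9, a tetraspanin of the cell membrane, read 8.74, 8.72 and 8.78 in Balb/c and 9.23, 8.91 and 9.20 in Balb/cBy. These groups are apart as well, with a difference of 0.36 (SE 0.11, interval 0.11 to 0.61). A dimmer probe set of Cd9 did not show this, with a Balb/c mean of 7.61 ± 0.17 (SD, n = 3), a Balb/cBy mean of 7.50 ± 0.03 (SD, n = 3) and a difference of -0.11, and the mean of both gave 0.12.

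Trem2, the lipid-sensing receptor that defines these macrophages, read 8.68, 8.73 and 8.60 in Balb/c and 8.77, 8.90 and 8.67 in Balb/cBy. Its groups overlap because Balb/cBy replicate 3 lies below 2 of the Balb/c arrays, and the difference was 0.11 (SE 0.10, interval -0.11 to 0.34). Lgals3, the carbohydrate-binding galectin-3, differed by 0.05 (SE 0.12, interval -0.22 to 0.33), and Itgax, the integrin CD11c, by 0.03 (SE 0.11, interval -0.23 to 0.29). Averaged over the 5 genes after centring each on its mean over 6 arrays, the Balb/c arrays stood at -0.09, -0.03 and -0.15. The Balb/cBy arrays stood at 0.16, 0.08 and 0.03. The strains do not overlap in this mean, but it holds Gpnmb and Cd9, which do not overlap singly. Trem2, Lgals3 and Itgax each overlap, and Cd9 enters by its brighter probe set alone. Means of some lists of other cells did not overlap either. They ran from -0.19 to 0.00 in Balb/c and 0.03 to 0.16 in Balb/cBy for neutrophil genes. For B and plasma cell genes they ran from -0.17 to -0.11 and from 0.02 to 0.27. The corresponding resident Kupffer means were 0.12, 0.28 and -0.42 in Balb/c and -0.25, 0.04 and 0.22 in Balb/cBy, and these do overlap. The lipid-associated mean minus the resident mean was -0.21, -0.31 and 0.27 in Balb/c and 0.40, 0.05 and -0.19 in Balb/cBy. Balb/c replicate 3 and Balb/cBy replicate 1 were the highest, so that this balance did not separate the strains.

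**Figure D2:**
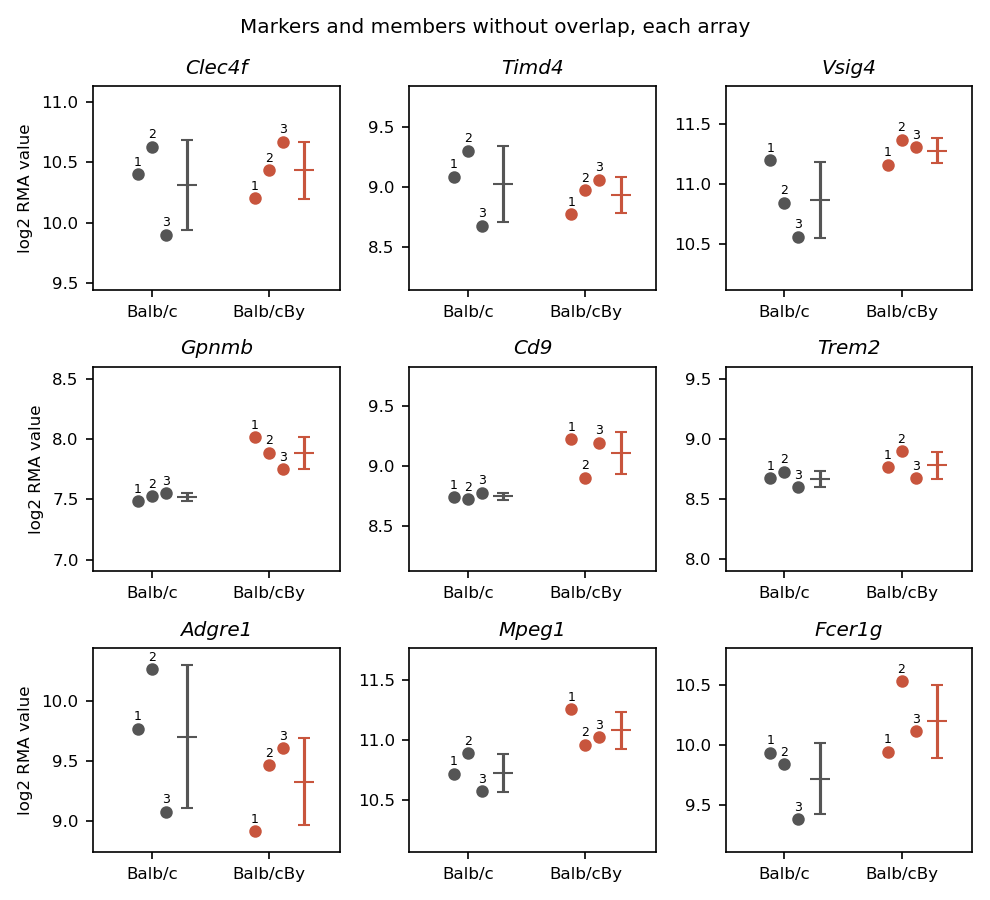
Log2 RMA value of 9 macrophage genes in each array (points, numbered by replicate), with the mean and SD of each strain beside them (n = 3); every panel spans the same number of log2 units. Gpnmb, Cd9, Mpeg1 and Fcer1g separate the strains, and Balb/c replicate 3 is the lowest Balb/c array for Clec4f, Timd4, Vsig4, Trem2, Adgre1, Mpeg1 and Fcer1g.

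The 3 genes of monocytes and monocyte-derived cells had overlapping groups and a median of 0.05. Lyz2, the lysozyme of myeloid cells, read 10.07, 10.44 and 10.29 in Balb/c and 10.44, 10.40 and 11.12 in Balb/cBy. Balb/cBy replicate 3 stood above all other arrays, and the difference of 0.39 (SE 0.20, interval -0.07 to 0.84) was 0.15 without it. Lyz2 has a close paralogue, Lyz1, and the probes may not tell them apart. Itgam, the integrin CD11b, read 7.97, 8.06 and 7.91 in Balb/c and 8.002, 7.83 and 8.25 in Balb/cBy, a difference of 0.05 (SE 0.12, interval -0.23 to 0.33). Cd14, the coreceptor for bacterial lipopolysaccharide, differed by 0.04 (SE 0.21).

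Among the general phagocyte genes 12 of 16 had a difference above 0, with a median of 0.11 that was -0.03 without Balb/c replicate 3. Fcer1g, the signalling chain shared by Fc receptors, read 9.93, 9.84 and 9.38 in Balb/c and 9.94, 10.53 and 10.11 in Balb/cBy. The groups barely separate, at Balb/c replicate 1 and Balb/cBy replicate 1, and the difference was 0.48 (SE 0.19, interval 0.04 to 0.91). Leaving out either Balb/c replicate 3 or the second Balb/cBy array gave 0.31. Mpeg1, the pore-forming perforin-2 of phagocytes, read 10.72, 10.89 and 10.58 in Balb/c and 11.26, 10.96 and 11.02 in Balb/cBy. All Balb/cBy arrays were above all Balb/c arrays, with a difference of 0.35 (SE 0.12, interval 0.07 to 0.63) and a range of 0.26 to 0.43 when each array was left out.

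Tyrobp, the adaptor DAP12 through which Trem2 signals, had overlapping groups. It read 9.80, 10.14 and 8.90 in Balb/c and 9.30, 10.04 and 9.999 in Balb/cBy, with a difference of 0.17 (SE 0.32, interval -0.57 to 0.90). Balb/c replicate 3 was lowest by a wide margin. The lysosomal marker Cd68 read 10.16, 9.97 and 9.21 in Balb/c and 9.99, 10.40 and 10.24 in Balb/cBy. Its difference of 0.43 (SE 0.23, interval -0.11 to 0.96) came to 0.14 without Balb/c replicate 3.

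Adgre1, a surface receptor widely used to stain mouse macrophages, differed most towards lower levels. It read 9.77, 10.26 and 9.08 in Balb/c and 8.92, 9.47 and 9.61 in Balb/cBy, a difference of -0.37 (SE 0.29, interval -1.05 to 0.30). The Balb/c arrays span 1.18 and cover all but 1 of the Balb/cBy arrays. Leaving out Balb/c replicate 3 gave -0.69, and leaving out replicate 2 of that strain gave -0.09. Csf1r, the receptor for the survival factors of macrophages, read 10.24, 10.64 and 9.67 in Balb/c and 9.75, 10.28 and 10.38 in Balb/cBy, a difference of -0.05 (SE 0.25). The mannose receptor Mrc1 differed by -0.19 (SE 0.15), and its Balb/cBy replicate 1, at 8.996, lay below the other 5 arrays. Spi1, the transcription factor PU.1 that sets the myeloid fate, differed by 0.08 (SE 0.15, interval -0.26 to 0.43).

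The 3 chains of C1q, the recognition unit of the classical complement pathway that macrophages make in the liver, had their lowest value in the same mouse. C1qb read 11.11, 11.18 and 10.22 in Balb/c and 10.92, 11.09 and 11.04 in Balb/cBy, and C1qc read 8.94, 9.17 and 8.24 and then 8.60, 8.995 and 8.91. C1qa read 10.02, 10.22 and 9.75 in Balb/c and 9.99, 10.17 and 10.23 in Balb/cBy. Balb/c replicate 3 was below every other array in all 3, and the differences between the strains were 0.13 (SE 0.14) for C1qa, 0.18 (SE 0.23) for C1qb and 0.05 (SE 0.23) for C1qc. The remaining phagocyte genes also had overlapping groups. Their differences were 0.28 (SE 0.23) for Cybb, the catalytic subunit of the phagocyte oxidase, and 0.21 (SE 0.23) for the protease cathepsin S, Ctss. They were 0.08 (SE 0.12) for cathepsin D, Ctsd, 0.08 (SE 0.11) for the scavenger receptor Msr1, and -0.01 (SE 0.10) for Aif1, the actin-binding protein IBA1.

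PU.1 binds a purine-rich element whose core can be written GAGGAA, and the promoters of the members were searched for it. RefSeq promoter sequences (GRCm38.p6) were matched for 25 of the 32 genes, with 27 promoters. In the 250 bases before the start, on either strand, 12 of 27 held GAGGAA, against 23.3% of all 32851 promoters in that table. By class these were 3 of 8 resident Kupffer promoters, 2 of 7 lipid-associated, 1 of 2 monocyte-derived and 6 of 10 general phagocyte promoters. Those of the 4 genes without overlap, Gpnmb, Cd9, Mpeg1 and Fcer1g, held none in this window, which says nothing about binding elsewhere. The E-box CACGTG was in 1 of 27, that of Ctsd, against 6.02% of all promoters. CATGTG, the core of the M-box bound by factors of the MITF family, was in 6 of 27, against 12.3% of all promoters, and these were promoters of C1qb, C1qc, Cd9, Folr2, Mrc1 and Timd4. Genes lowest in Balb/c replicate 3 were of both kinds. Vsig4, Cd5l, Trem2, Cd68, C1qb, C1qc, Ctss and Aif1 hold the core. Clec4f, Timd4, Folr2, Lgals3, Itgax, Mpeg1, Fcer1g and Ctsd do not. Shown as examples are 4 genes that were lowest in Balb/c replicate 3 and hold the core, then 2 that separated the strains and do not. Sequences run 5′ to 3′ on the strand of the gene, with the core or its reverse complement TTCCTC in capitals.
C1qb, chr4:136886201-136886450 (-): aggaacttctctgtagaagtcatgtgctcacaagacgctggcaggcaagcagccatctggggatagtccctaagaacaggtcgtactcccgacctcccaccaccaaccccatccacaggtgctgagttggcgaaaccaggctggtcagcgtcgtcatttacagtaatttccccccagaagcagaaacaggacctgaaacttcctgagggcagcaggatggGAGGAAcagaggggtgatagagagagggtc
C1qc, chr4:136892915-136893164 (-): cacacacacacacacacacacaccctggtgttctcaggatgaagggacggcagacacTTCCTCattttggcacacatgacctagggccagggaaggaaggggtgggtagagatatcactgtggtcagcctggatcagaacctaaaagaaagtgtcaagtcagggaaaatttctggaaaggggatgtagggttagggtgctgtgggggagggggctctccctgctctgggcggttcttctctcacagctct
Cd68, chr11:69666171-69666420 (-): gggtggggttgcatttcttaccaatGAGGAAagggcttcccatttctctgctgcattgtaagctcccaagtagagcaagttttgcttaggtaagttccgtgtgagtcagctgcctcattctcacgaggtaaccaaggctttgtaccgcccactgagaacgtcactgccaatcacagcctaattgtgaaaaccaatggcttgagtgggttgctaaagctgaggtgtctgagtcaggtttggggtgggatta
Ctss, chr3:95526536-95526785 (+): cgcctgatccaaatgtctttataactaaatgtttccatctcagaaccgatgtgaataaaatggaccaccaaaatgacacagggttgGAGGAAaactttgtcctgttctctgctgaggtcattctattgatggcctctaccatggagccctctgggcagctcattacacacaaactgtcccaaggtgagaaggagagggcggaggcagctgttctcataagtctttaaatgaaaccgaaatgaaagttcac
Gpnmb, chr6:49036268-49036517 (+): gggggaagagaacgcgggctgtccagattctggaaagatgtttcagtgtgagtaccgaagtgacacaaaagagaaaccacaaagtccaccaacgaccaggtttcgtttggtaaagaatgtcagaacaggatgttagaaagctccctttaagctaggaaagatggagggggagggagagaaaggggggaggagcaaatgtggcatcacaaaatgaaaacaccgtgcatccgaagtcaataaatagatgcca
Mpeg1, chr19:12460520-12460769 (+): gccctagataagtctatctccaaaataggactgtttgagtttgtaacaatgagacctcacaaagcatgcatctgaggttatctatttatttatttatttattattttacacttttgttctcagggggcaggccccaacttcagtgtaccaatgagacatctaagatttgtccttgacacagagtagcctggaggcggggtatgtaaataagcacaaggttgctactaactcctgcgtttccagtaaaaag

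Most members were lowest in the same mouse. Balb/c replicate 3 was the lowest of the 6 arrays for 21 of 31 members, against 19.4% of all genes, and the highest for 0. Balb/cBy replicate 1 was lowest for 5 more (Marco, Cd163, Adgre1, Mrc1 and Cybb), against 14.7% of all genes. Balb/c replicate 2 was the highest array for 12 members and Balb/cBy replicate 3 for 8, where 21.2% and 8.86% of all genes had their highest value there. The range over the 3 Balb/c mice exceeded 0.5 for 16 members, in all of which replicate 3 was the lowest Balb/c array. Averaged over the 31 centred members, Balb/c stood at 0.01, 0.17 and -0.34 and Balb/cBy at -0.12, 0.10 and 0.18. The lipid-associated genes Gpnmb and Cd9 were among those that did not share this pattern. Their Balb/c arrays were within 0.07 of each other, and Balb/cBy replicate 1 was their highest array. The dimmer probe set of Cd9 was less even, at 7.46, 7.79 and 7.59 in Balb/c. Mrc1 had a Balb/c range of 0.05, and in Mrc1 and Msr1 replicate 3 was the highest Balb/c array.

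**Figure D3:**
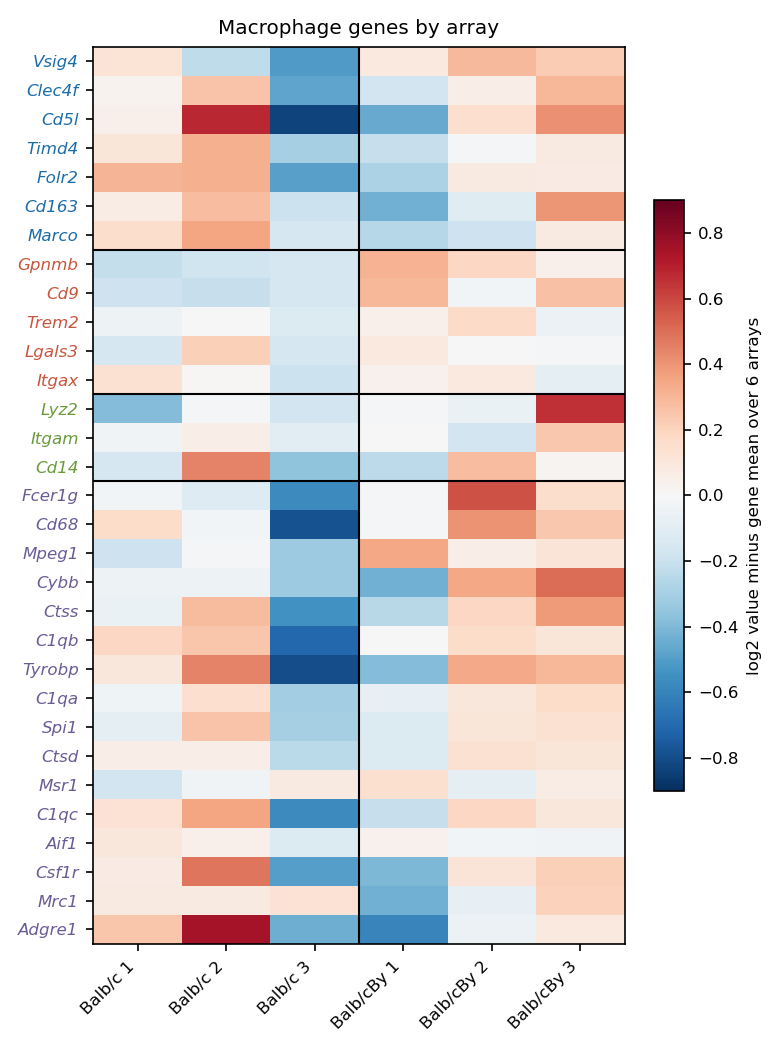
Each measured macrophage gene (rows, by class: blue resident Kupffer, red lipid-associated, green monocyte-derived, purple general phagocyte) in each array (columns), as its log2 value minus the mean of that gene over the 6 arrays. Balb/c replicate 3 is the lowest array for 21 of 31 genes. Gpnmb and Cd9 (its brighter probe set) are not among these, and their groups do not overlap.

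The class medians showed the same dependence. When Balb/c replicate 3 was left out, the resident Kupffer median was -0.26 and the general phagocyte median -0.03. When Balb/cBy replicate 1 was left out, they were 0.09 and 0.19. Leaving out Balb/c replicate 2 gave 0.05 and 0.24. The monocyte-derived median lay between 0.01 and 0.28 over the arrays left out. The lipid-associated median stayed above 0 in each case, between 0.06 and 0.17. Leaving out both Balb/c replicate 3 and Balb/cBy replicate 1 was a choice made after their values were seen. The medians were then -0.08 for resident Kupffer, 0.08 for lipid-associated, 0.02 for monocyte-derived and 0.06 for general phagocyte genes.

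**Figure D4:**
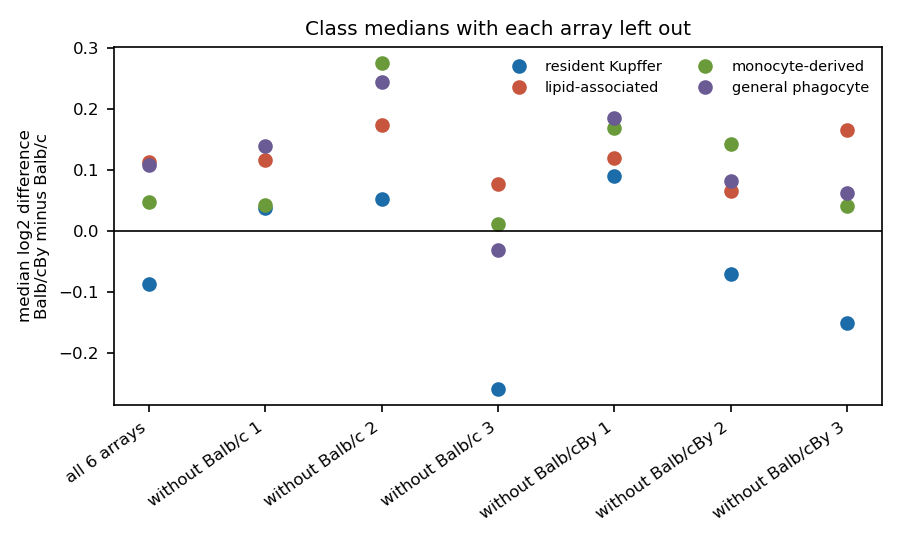
Median log2 difference (Balb/cBy minus Balb/c) of each class with all 6 arrays and with each array left out in turn. The lipid-associated median stays between 0.06 and 0.17, while the resident Kupffer median runs from -0.26 to 0.09.

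Further genes of the same programmes were read from lists of their function, and none of them was called (limma, adjusted p from 0.668 to 0.999). Counts without overlap in these lists stand against 4.32% of all genes higher and 3.51% lower. Of 18 other genes of the lipid-associated programme, 11 had a difference above 0, with a median of 0.04, and 4 were higher and 0 lower without overlap. Fabp5, a fatty acid binding protein, read 7.75, 8.27 and 8.75 in Balb/c and 10.04, 9.59 and 9.11 in Balb/cBy, a difference of 1.32 (SE 0.29). The lysosomal tetraspanin Cd63 read 8.70, 8.33 and 8.36 in Balb/c and 9.03, 8.97 and 9.16 in Balb/cBy, a difference of 0.59 (SE 0.12). The macrophage elastase Mmp12 differed by 0.36 (SE 0.10) and cathepsin Z, Ctsz, by 0.26 (SE 0.11). Fabp5, Cd63 and Ctsz are also made outside macrophages, and other genes of the programme did not separate, among them Capg at -0.10 (SE 0.12) and Lipa at -0.05 (SE 0.10).

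Of 14 further genes of Kupffer cell identity and iron handling, 5 were higher, 9 lower, and the median was -0.03. The lectin ficolin A, Fcna, was the one with higher values and no overlap, at 9.56, 9.47 and 9.12 in Balb/c and 9.60, 9.84 and 10.03 in Balb/cBy, a difference of 0.44 (SE 0.15). The potassium channel gene Kcna2 was lower without overlap, at 8.25, 8.41 and 8.30 in Balb/c and 8.25, 8.14 and 8.19 in Balb/cBy, a difference of -0.13 (SE 0.09). Its groups touch to within rounding. The receptor Nr1h3, LXR-alpha, which maintains Kupffer cell identity, differed by 0.03 (SE 0.14). Of 16 genes of monocyte recruitment, 9 were higher and the median was 0.04. The chemokine Ccl2 read 7.69, 7.58 and 7.61 in Balb/c and 7.72, 8.11 and 7.89 in Balb/cBy, without overlap and with a difference of 0.28 (SE 0.12). Its receptor Ccr2 differed by -0.04 (SE 0.09, interval -0.25 to 0.17).

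Of 22 phagocyte receptor, oxidase and signalling genes, 13 were higher and the median was 0.05, with the inhibitory Fc receptor Fcgr2b at -0.30 (SE 0.15) and the lipid receptor Cd300lf at -0.14 (SE 0.09). Of 18 growth factor, niche and transcription factor genes, 8 were higher and the median was -0.03. Cebpa, a transcription factor of myeloid cells that hepatocytes express as well, was lower without overlap, at 11.25, 11.30 and 11.48 in Balb/c and 10.83, 11.01 and 11.10 in Balb/cBy (difference -0.36, SE 0.11). Klf4, a transcription factor of monocytes and endothelium, was higher without overlap, at 8.61, 8.60 and 8.55 in Balb/c and 8.69, 8.71 and 8.70 in Balb/cBy (difference 0.11, SE 0.08). The ligands of Csf1r, named here after their values were seen, differed by 0.29 (SE 0.13) for Csf1 and 0.09 (SE 0.20) for Il34.

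Of 9 genes of class II antigen presentation, by which macrophages, dendritic cells and B cells present peptides, 1 was higher and 8 lower, with a median of -0.17 and no gene without overlap. H2-Ab1 read 9.90, 11.45 and 9.54 in Balb/c and 9.08, 10.16 and 9.86 in Balb/cBy, a difference of -0.60 (SE 0.48). Balb/c replicate 2 stood above all other arrays. H2-DMb1, which helps load the peptides, differed by -0.21 (SE 0.11).

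Markers of other liver cells moved with the macrophage genes in part. In Balb/c replicate 3, the array with the lowest macrophage means, the centred mean was -0.10 over 11 genes of sinusoidal endothelium, -0.26 over 12 stellate and fibroblast genes and -0.19 over 10 neutrophil genes. In that array it was -0.04 over 10 hepatocyte genes and 0.00 over 11 T and NK cell genes. In Balb/c replicate 2, where the mean over the members was 0.17, it was -0.18 for stellate and -0.20 for hepatocyte genes. There it was 0.04 for endothelial, 0.00 for neutrophil and 0.11 for T and NK cell genes. Across the arrays the neutrophil mean ran from -0.19 to 0.00 in Balb/c and from 0.03 to 0.16 in Balb/cBy, with 9 of 10 genes higher. The stellate mean ran from -0.26 to 0.11 and from -0.02 to 0.26, with 11 of 12 genes higher. The endothelial mean ran from -0.10 to 0.09 and from -0.15 to 0.12, with 6 of 11 higher. The T and NK mean ran from 0.00 to 0.11 in Balb/c and from -0.12 to 0.01 in Balb/cBy, with 1 of 11 higher. Over 7 B and plasma cell genes it ran from -0.17 to -0.11 and from 0.02 to 0.27, with 3 higher and a median difference of -0.0034. In that list the immunoglobulin genes Ighm (1.59, SE 0.21) and Jchain (1.12, SE 0.28) were higher without overlap. The B cell genes Cd79a (-0.17, SE 0.10), Cd79b (-0.27, SE 0.10) and Ms4a1 (-0.27, SE 0.09) were lower without overlap. Also higher without overlap were the stellate genes Dcn (0.48, SE 0.14) and Lum (0.53, SE 0.12). So were the neutrophil genes S100a8 (0.29, SE 0.12), Retnlg (0.40, SE 0.11) and Cxcr2 (0.13, SE 0.09). Endothelial Kdr (-0.23, SE 0.13) and Nkg7 of the T and NK list (-0.24, SE 0.09) were lower without overlap. Over all genes 4.32% were higher and 3.51% lower without overlap. The hepatocyte mean ran from -0.20 to -0.02 and from -0.09 to 0.20, with 6 of 10 higher. The stellate, endothelial, hepatocyte and T and NK means overlapped between the strains, the last narrowly, and so did the remaining lists. Of these, 5 cholangiocyte genes ran from -0.05 to 0.05 and from -0.10 to 0.10. The 7 dendritic cell genes ran from -0.07 to 0.16 and from -0.10 to 0.07. The 6 adipocyte and mesothelial genes ran from -0.12 to 0.21 and from -0.20 to 0.15. The part of these cells in the macrophage values was not tested. Values of log2 RMA have no 0, so no marker can be called absent.

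**Figure D5:**
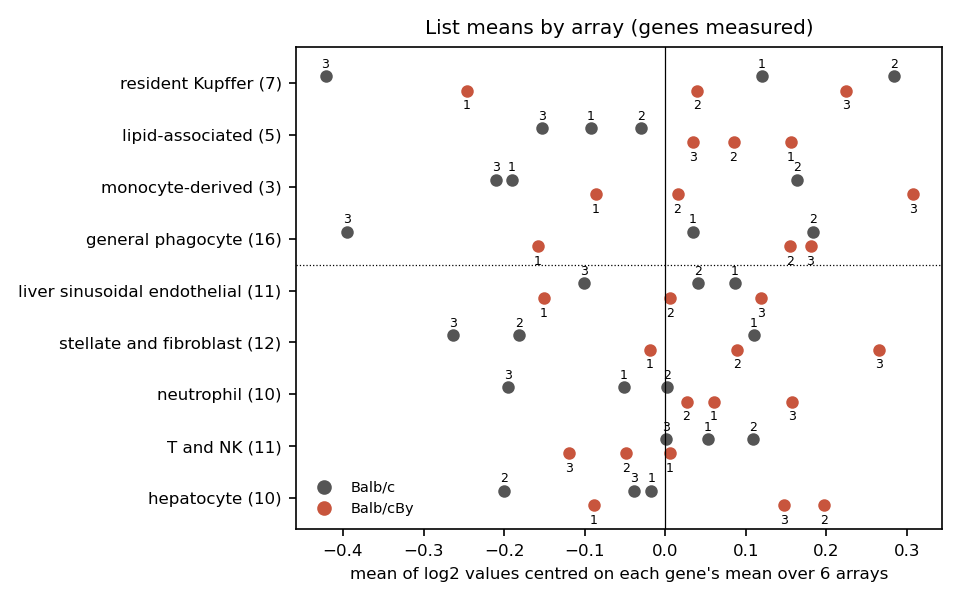
Mean of log2 values, each gene centred on its mean over 6 arrays, for the macrophage classes (above the dotted line) and markers of other liver cells (below), with the number of genes measured in parentheses. Points are arrays numbered by replicate, and Balb/c replicate 3 is lowest for all 4 macrophage classes (resident Kupffer -0.42, lipid-associated -0.15, monocyte-derived -0.21, general phagocyte -0.40) and for the stellate and neutrophil lists.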

How the data were processed

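Values were the log2 intensities per probe set that the authors deposited, made with RMA (background correction, quantile normalization and probe summary), as per the submitters' processing notes. That the scale is log2 follows from the range of the values. The RMA version and the probe annotation behind it are not given in the sources. Gene names came from GEO's platform annotation, which gave 1 symbol to 23521 probe sets. Of several probe sets of a gene (1082 genes) the one with the highest mean over 6 arrays was used, which left 22180 genes without a filter.

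Balb/cBy was compared with Balb/c by lmFit and eBayes of limma 3.58.1 (R 4.3.3) over all genes, with no covariate, Benjamini-Hochberg adjustment and a threshold of 0.05. The fit was tested on simulated data. An SE is the moderated standard error, and intervals are at 95%. Precision is limited by the 3 arrays per strain. An exact permutation test of 3 against 3 cannot go below p = 0.1.

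The members and all lists were chosen with earlier results of these data known, and so are described by counts and medians. Named genes were the 5 markers, members without overlap and the 2 with the largest difference in each class, with values in every array. In the functional lists these were up to 4 genes without overlap and with an unadjusted p under 0.05, or else the 2 with the smallest p. Capg, Lipa, Nr1h3, Ccr2, Csf1, Il34, Kcna2, Klf4, Tyrobp, Cd5l, Csf1r and the C1q genes were given beyond that rule, after their values were seen. Alternatives were a replicate block, filters on dim genes, averaged probe sets, recentring, a repeat of the quantile step, other variance models, array weights and leaving out arrays.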

Additional observations from a re-analysis of the deposited data

How the results depend on the processing

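No member was called under any of the 16 alternatives (lowest adjusted p 0.369 in limma, for Cybb). Over all genes, array weights called 12, leaving out Balb/c replicate 3 called 2, leaving out Balb/cBy replicate 1 called 3, leaving out both called 13, and the others called 0. The labels do not say whether the replicate numbers pair the mice. For numbers 1, 2 and 3 the deviations correlated at -0.323, -0.201 and -0.228 over all genes and at -0.238, 0.402 and -0.214 over the members. With 3 arrays per strain these values cannot decide it. With a replicate block 0 members were called, 23 were higher and the median was 0.08. Leaving out single arrays gave 12 to 28 members higher, with 4 to 8 higher and 0 to 6 lower without overlap. Over all genes 9.53% were higher and 10.1% lower without overlap when Balb/c replicate 3 was left out. For Balb/cBy replicate 1 these shares were 12.8% and 14.1%, and they were not taken for the other arrays. Medians ran from 0.065 to 0.17 for lipid-associated and 0.011 to 0.28 for monocyte-derived genes. With both Balb/c replicate 3 and Balb/cBy replicate 1 left out, 8 members were higher without overlap and 6 lower, where 20% and 23.3% of all genes were. A filter at the median of all probe sets gave a lipid-associated median of 0.24, over fewer genes.

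The sign of many small differences depended on single arrays, with ranges of -0.082 to 0.28 for Clec4f, -0.26 to 0.053 for Timd4, -0.32 to 0.43 for Cd5l, -0.32 to 0.090 for Cd163, -0.36 to 0.047 for Folr2, -0.0088 to 0.17 for Lgals3, -0.058 to 0.11 for Itgax, -0.062 to 0.14 for Itgam, -0.13 to 0.28 for Cd14 and -0.13 to 0.35 for C1qb. They were -0.22 to 0.25 for C1qc, -0.30 to 0.18 for Csf1r, -0.19 to 0.43 for Tyrobp, -0.0054 to 0.41 for Ctss, -0.017 to 0.16 for Ctsd, -0.079 to 0.033 for Aif1, -0.045 to 0.23 for Spi1 and -0.17 to 0.23 for Il34. With both arrays left out, Cd5l was -0.081, Lgals3 -0.041, Itgax -0.069, Cd14 -0.00053, C1qb -0.082, C1qc -0.10 and Il34 -0.16. Array weights gave 0.11 for Cd163, -0.078 for Itgax, 0.053 for Csf1r and -0.0027 for Il34. Repeated quantile normalization gave -0.0064 for C1qc and 0.0070 for Aif1, and recentring 0.0034 for Aif1. The cause was not tested. Gpnmb, Cd9, Mpeg1, Fcer1g and Vsig4 stayed above 0 in each alternative. So did Trem2, Lyz2, Cd68, C1qa, Msr1 and Cybb, while Marco, Adgre1 and Mrc1 stayed below 0. Signal over background was not judged, since no detection values were used.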
